A study of Rattus norvegicus with 4 samples.

Results

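The genes described here encode the potassium channels of the dorsal root ganglion (DRG) other than the Kv1 complex of the juxtaparanode. They were taken as the protein-coding genes whose symbol starts with Kcn, leaving out Kcna1, Kcna2, Kcna4, Kcna6, Kcnab1, Kcnab2 and Kcnj10, which left 86 genes (85 symbols, since Kcnk6 has 2 gene identifiers) of 22293 protein-coding genes in the count table. The choice used names only and no measured value. Potassium channels carry the outward current that returns a sensory neuron to rest after an action potential and that sets how readily it fires again. Voltage-gated channels are built from 4 pore subunits, whose gating is tuned by silent subunits that form no working channel alone and by cytoplasmic and membrane auxiliary subunits, while calcium- and sodium-activated channels, inward rectifiers and tandem pore (K2P) channels follow intracellular ions, membrane potential or none of these. In sensory ganglia, loss of potassium channel expression after nerve injury is a well-known feature of hyperexcitable neurons, and the M-current channels, the A-type channels and the background K2P channels have each been studied as brakes on nociceptor firing.

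The study asked how the DRG responded to early-life cisplatin, a platinum-based chemotherapeutic that causes painful neuropathy. Neonatal Wistar rats received vehicle (phosphate-buffered saline) or cisplatin at 0.3 mg/kg by intraperitoneal injection on P14 and P16, and whole lumbar DRGs, several of them pooled for each library, were sequenced as polyadenylated RNA in 2 libraries per group. The age at collection is P23 in the methods, while the labels put it at 16 days after treatment. The labels name 1 rat for each library and the sources used here do not state its sex, so that each group rests on 2 animals. The total count was between 21384801 and 25618417 per library, and 3 counts, the level below which a gene was not distinguished from 0, corresponded to 0.118 to 0.152 CPM (counts scaled to the TMM-normalised library size).

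Vehicle replicate 1 stood apart from the other libraries in markers of spinal cord and skeletal muscle. A spinal cord list of 12 markers was added after seeing the data and holds genes of oligodendrocytes, astrocytes and spinal neurons. All 12 had their highest level in vehicle replicate 1. For 1 of them, Chat, this order lay below 3 counts, with 2 and 0 counts after vehicle and 1 and 0 after cisplatin. The 12 markers summed to 188 CPM in vehicle replicate 1 against 34.7 CPM in vehicle replicate 2, 21.8 CPM in cisplatin replicate 1 and 39.1 CPM in cisplatin replicate 2. Of these markers, 3 were at 0 in vehicle replicate 2 and 2 in each cisplatin library. All 5 skeletal muscle markers in the table were also highest there, with a sum of 493 CPM, 9.26 times that of the next library. The results that this library moved most are therefore also given without it. Sensory neurons were well represented in all 4 libraries: the 22 neuron markers summed to 34135 and 26162 CPM after vehicle and 42074 and 30001 CPM after cisplatin, and 20 of the 22 were highest in cisplatin replicate 1. The 8 markers of myelinating Schwann cells summed to 60854 and 156275 CPM after vehicle and 47787 and 137053 CPM after cisplatin, so that replicate 1 of each group held more neuronal and less Schwann cell RNA than replicate 2. Mitochondrially encoded genes took 1.46% and 2.52% of the counts after vehicle and 5.38% and 4.68% after cisplatin, and the part of this difference in the values below was not tested.

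**Figure D1:**
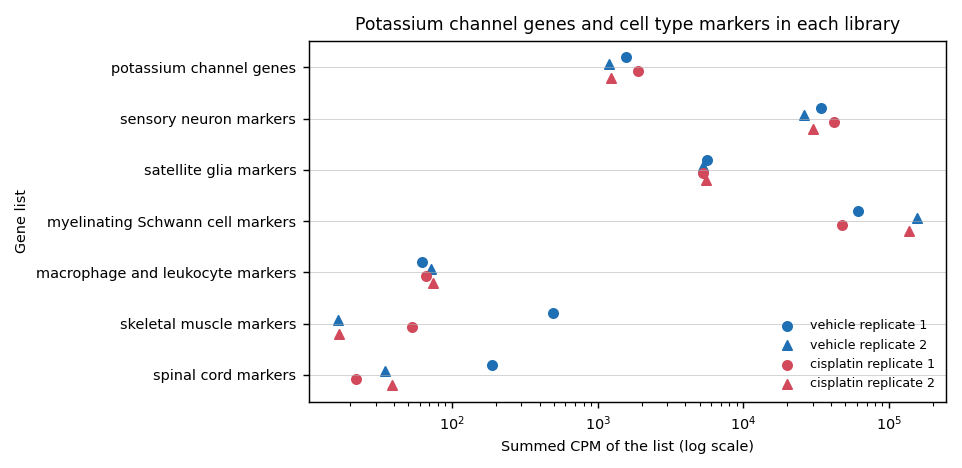
Summed CPM (x axis, log scale) of all 86 potassium channel genes and of 6 marker lists (y axis) in each of the 4 libraries, with circles for replicate 1 and triangles for replicate 2 of each group. Vehicle replicate 1 stands to the right for skeletal muscle (493 CPM) and spinal cord markers (188 CPM), and the potassium channel genes follow the order of the neuron markers.

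Of the 86 genes, 85 had at least 1 count and 71 passed edgeR's filter on low counts. By FPKM, which also divides by gene length and so allows levels to be compared between genes, 12 of the 71 had a mean of at least 10 over the 4 libraries, 42 lay between 1 and 10 and 17 below 1. The order was led by an A-type pore subunit and a background channel. Kcnd1 (48.7 FPKM, between 32.7 and 71.5 over the libraries) and Kcnk1 (47.9 FPKM, between 35.0 and 61.3) could not be separated by their spread. Next came the auxiliary subunit gene Kcnip3 (32.0 FPKM), the silent subunit genes Kcns3 (30.1 FPKM) and Kcns1 (27.8 FPKM) and the ERG channel gene Kcnh2 (29.1 FPKM), whose ranges over the libraries all overlapped. The leading inward rectifier gene, Kcnj12 (8.37 FPKM), and the leading ion-activated gene, Kcnt1 (7.71 FPKM), stood lower.

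**Figure D2:**
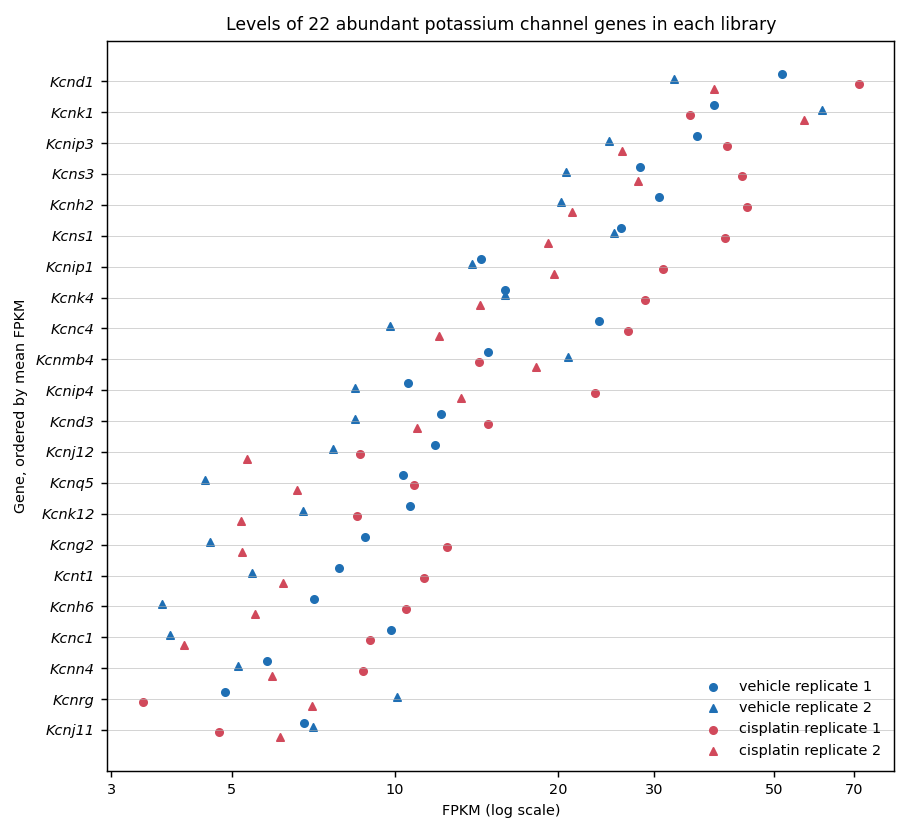
FPKM (x axis, log scale) of 22 abundant potassium channel genes (y axis, ordered by the mean) in each of the 4 libraries, with circles for replicate 1 and triangles for replicate 2 of each group. Cisplatin replicate 1 holds the highest value of Kcnd1 (71.5 FPKM), whereas the highest value of Kcnk1 (61.3 FPKM) is in vehicle replicate 2.

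No potassium channel gene passed the threshold after cisplatin. With a gene called where edgeR's quasi-likelihood test gave an adjusted p (Benjamini-Hochberg, over every gene tested) under 0.05 and the groups differed at least 1.5-fold, 0 of the 71 were called, against 1 of all 14719 genes tested (0.00679%), and the smallest adjusted p of a potassium channel gene was 0.509. DESeq2 also called 0, against 99 of the 15264 genes to which it gave an adjusted p (0.649%). At an unadjusted p under 0.05 with the same fold change, Kcnj13, Kcnip1 and Kcnip4 were higher and Kcnk9 and Kcnq3 lower, where 2.8% of all genes tested were higher and 5.32% lower. Both cisplatin-treated libraries lay above both vehicle-treated libraries in 10 of the 71 genes and below them in 10, against 20.6% and 21.2% of all genes tested, so that non-overlapping groups were not more frequent here than elsewhere. An exact permutation test (two-sided) on 2 libraries per group cannot give a p below 0.333 for any gene, so the tests borrow their spread from all genes. The fold changes went both ways, with 38 genes higher and 33 lower, a median log2 fold change of 0.06 (−0.01 over all genes tested) and a range from −3.33 to 2.42. In whole ganglia, fewer cells of a type and less RNA per cell cannot be told apart in any of these values.

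**Figure D3:**
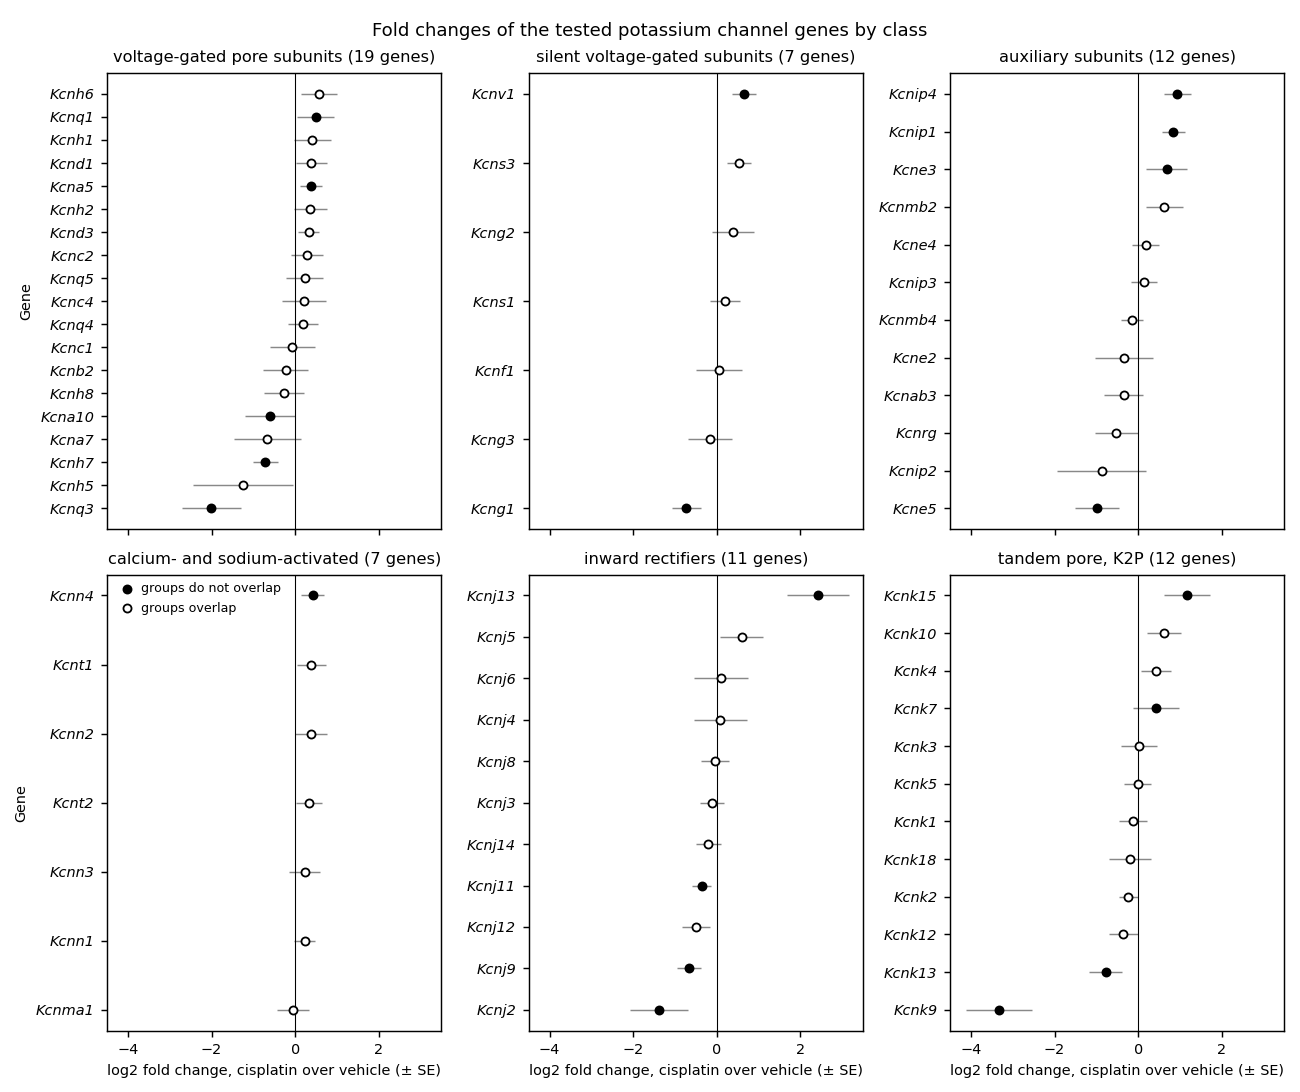
log2 fold change of cisplatin over vehicle with its standard error (x axis) for 68 of the 71 tested genes (y axis), in 6 classes. Filled points mark the 20 genes whose groups do not overlap, 10 on each side, and the ends of the range are Kcnk9 (−3.33) and Kcnj13 (2.42).

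The voltage-gated pore subunits, 22 tested, had 12 genes higher and 10 lower with a median of 0.09. Without overlap, 2 of the 22 lay above and 3 below, against 20.6% and 21.2% of all genes tested. Kcnq3 (ENSRNOG00000005206; chromosome 7, 106717229 to 107009330, Rnor_6.0), which contributes to the slow M-current that opposes repetitive firing, had 105 and 23 counts after vehicle and 20 and 13 counts after cisplatin. Both cisplatin-treated libraries lay below both vehicle-treated libraries, but vehicle replicate 1 was far above the rest. The log2 fold change was −2.01 ± 0.70 (SE; edgeR, unadjusted p = 0.0318 and adjusted p = 0.509), and without vehicle replicate 1 it was −0.78. The spinal cord and skeletal muscle markers are high in the same library, and their part in the value of Kcnq3 was not tested. Kcnq5, a more abundant M-current gene (8.06 FPKM), had 68.7 and 30.02 CPM after vehicle and 72.3 and 43.9 CPM after cisplatin, with a log2 fold change of 0.23 (0.96 without vehicle replicate 1).

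The A-type, delayed rectifier and fast-spiking channel genes overlapped between the groups. Kcnd1 (ENSRNOG00000039544; chromosome X, 15506724 to 15520712), which encodes a pore subunit of the rapidly inactivating A-type current, had 196 and 125 CPM after vehicle and 271 and 147 CPM after cisplatin, with a log2 fold change of 0.38 ± 0.37 (SE). Kcnd3, its relative, had 84.5 and 59.3 CPM against 103 and 76.3 CPM, with a log2 fold change of 0.32 ± 0.26. In both genes replicate 1 was above replicate 2 in each group by more than the groups differed. Kcnb2, a delayed rectifier pore, had 4.23 and 1.93 CPM after vehicle against 3.503 and 1.79 CPM. The genes of the fast Kv3 channels, which allow short action potentials, differed more between replicate numbers than between groups. Kcnc4 had 69.0 and 28.8 CPM after vehicle and 78.3 and 35.0 CPM after cisplatin, and Kcnc1 had 39.8 and 15.7 CPM against 36.5 and 16.6 CPM. Their log2 fold changes were 0.21 and −0.07, each smaller than its standard error (0.53 and 0.55).

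Among the ether-à-go-go genes, Kcnh7 (ENSRNOG00000007528; chromosome 3, 48671079 to 48831467), an ERG-type pore subunit, had 7.75 and 5.84 CPM after vehicle and 4.49 and 3.78 CPM after cisplatin. The groups did not overlap, with a log2 fold change of −0.72 ± 0.30 (SE; edgeR, unadjusted p = 0.058 and adjusted p = 0.519). Without vehicle replicate 1 it was −0.49. The more abundant ERG gene Kcnh2 had 126 and 84.2 CPM after vehicle and 183 and 87.0 CPM after cisplatin, overlapping groups with a log2 fold change of 0.36. The remaining genes without overlap were low or moved little: Kcna5, a Kv1 pore outside the juxtaparanodal set, had 7.59 and 6.81 CPM against 10.6 and 8.08 CPM, Kcnq1 had 19 and 19 counts against 28 and 31, and Kcna10 had 14 and 11 counts against 11 and 7.

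The 7 tested silent subunits, which join the delayed rectifier pores and shift their gating, had 5 genes higher and 2 lower with a median of 0.21. Kcnv1 (ENSRNOG00000004117; chromosome 7, 84015207 to 84023316) had 13.9 and 8.69 CPM after vehicle and 17.6 and 17.9 CPM after cisplatin. Both cisplatin-treated libraries lay above the vehicle-treated libraries and close to each other (17.8 ± 0.214 CPM against 11.3 ± 3.72 CPM; SD, n = 2 each), with a log2 fold change of 0.65 ± 0.29 (SE; edgeR, adjusted p = 0.532). Without vehicle replicate 1 it was 1.05. Kcng1 (ENSRNOG00000054314; chromosome 3, 165020230 to 165039707) went the other way, with 21.6 and 15.2 CPM after vehicle and 14.0 and 8.29 CPM after cisplatin. Its log2 fold change was −0.72 ± 0.34 (SE; edgeR, adjusted p = 0.541) and −0.44 without vehicle replicate 1. Kcns3, the most abundant of the class, had 66.9 and 49.4 CPM after vehicle and 103 and 66.2 CPM after cisplatin. Its groups overlapped by the small gap between vehicle replicate 1 and cisplatin replicate 2, and the log2 fold change was 0.54 ± 0.29 (SE). Kcns1, a gene tied to pain sensitivity, had 71.9 and 70.4 CPM after vehicle and 112 and 52.6 CPM after cisplatin, so that the cisplatin-treated libraries lay on both sides of the vehicle-treated pair.

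The 12 tested auxiliary subunits had 6 genes higher and 6 lower with a median of −0.0011, but the Kv4 partners Kcnip1 and Kcnip4 stood at its upper end. These genes encode calcium-binding proteins that bind the A-type pores, raise their surface expression and slow their inactivation. Kcnip1 (ENSRNOG00000005365; chromosome 10, 18558128 to 18942540) had 25.4 and 24.7 CPM after vehicle and 55.1 and 34.7 CPM after cisplatin. The vehicle-treated libraries were close (25.03 ± 0.479 CPM, SD, n = 2) and the cisplatin-treated libraries both above and more spread (44.9 ± 14.5 CPM, SD, n = 2), a 1.79-fold difference in the fit with a log2 fold change of 0.84 ± 0.27 (SE; edgeR, unadjusted p = 0.0219 and adjusted p = 0.509). Kcnip4 (ENSRNOG00000032350; chromosome 14, 66598259 to 66749178) had 23.4 and 18.8 CPM after vehicle and 51.8 and 29.3 CPM after cisplatin. Again the groups did not overlap and cisplatin replicate 1 was the higher library, with a log2 fold change of 0.94 ± 0.32 (SE; edgeR, unadjusted p = 0.0282 and adjusted p = 0.509). Without vehicle replicate 1 the values were 0.87 for Kcnip1 and 1.11 for Kcnip4, and over all libraries left out in turn they lay between 0.48 and 1.14 and between 0.48 and 1.29, with the lowest value of each without cisplatin replicate 1. Neuron markers were also highest in that library, and their part in these differences was not tested.

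Kcnip3, the most abundant auxiliary subunit, whose product also acts as a transcriptional repressor, had 68.8 and 47.9 CPM after vehicle and 78.5 and 50.1 CPM after cisplatin, with a log2 fold change of 0.14 ± 0.30 (SE). Kcnmb4, the neuronal beta subunit of the BK channel, had 18.2 and 25.8 CPM after vehicle and 17.5 and 22.3 CPM after cisplatin. The single-span subunit genes had low counts, and 2 of them did not overlap between the groups, in opposite directions. Of all genes tested, 20.6% lay above and 21.2% below in this way. Kcne3 had 31 and 61 counts after vehicle and 81 and 87 counts after cisplatin. Its log2 fold change of 0.68 was 0.16 without vehicle replicate 1. Kcne5 had 43 and 18 counts against 20 and 13 counts, and its log2 fold change of −0.98 was −0.43 without that library.

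**Figure D4:**
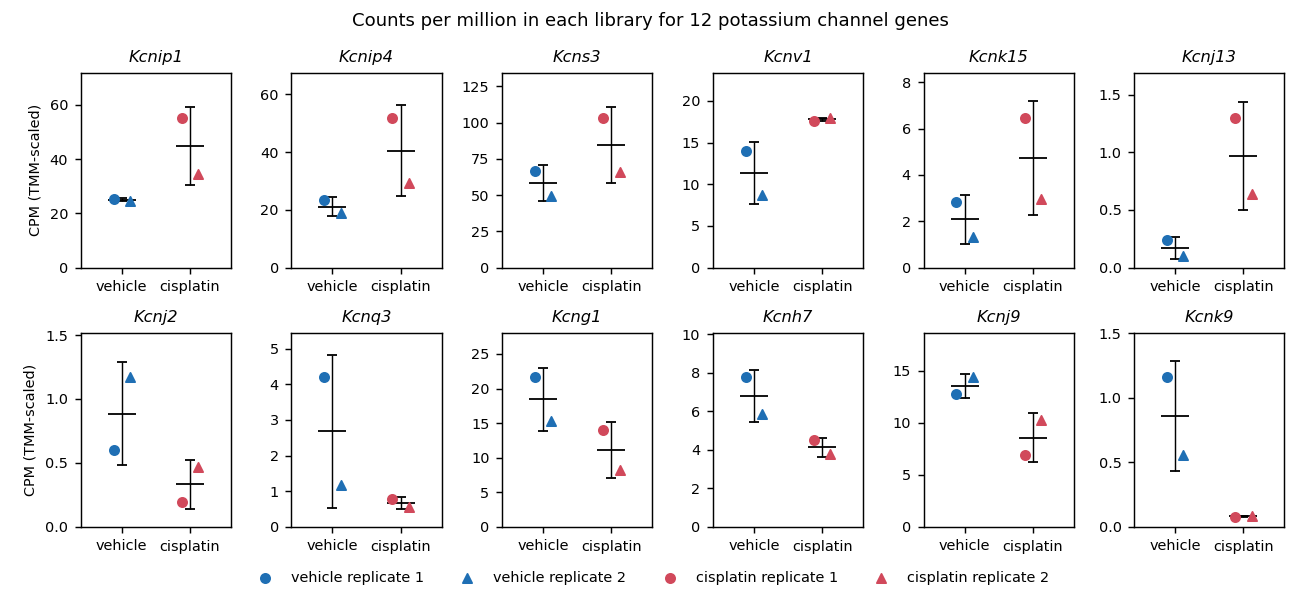
CPM in each library (y axis, from 0, a scale for each gene) for 12 potassium channel genes in vehicle-treated and cisplatin-treated rats (x axis), with circles for replicate 1, triangles for replicate 2, and lines for the group mean ± SD (n = 2). Kcnip1 shows a close vehicle pair below both cisplatin libraries and Kcnip4 a more spread one, and in Kcnq3 vehicle replicate 1 alone stands high.

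The ion-activated class had 7 genes tested, with 6 higher, 1 lower and the highest class median, 0.34, though none at an unadjusted p under 0.05. Kcnt1, which encodes a sodium-activated channel that follows bursts of firing, had 47.1 and 32.9 CPM after vehicle and 67.6 and 37.1 CPM after cisplatin, and its relative Kcnt2 had 8.75 and 5.64 CPM against 9.68 and 8.54 CPM. In both genes the groups overlapped, with log2 fold changes of 0.39 ± 0.34 and 0.34 ± 0.31 (SE). The genes of the small-conductance calcium-activated channels, which contribute to the afterhyperpolarisation, had lower levels: Kcnn1 had 13.4 and 10.4 CPM after vehicle and 15.5 and 12.5 CPM after cisplatin, and Kcnn2 had 4.47 and 3.25 CPM against 6.38 and 3.74 CPM. The only gene of the class without overlap was Kcnn4, with 12.9 and 11.6 CPM against 19.5 and 13.3 CPM and a log2 fold change of 0.42 ± 0.27. Kcnma1, the BK pore gene, was the lower gene of the class, at 11.6 and 8.03 CPM after vehicle and 12.2 and 6.72 CPM after cisplatin, with a fitted log2 fold change of −0.05 ± 0.38.

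Of the 11 tested inward rectifiers, 4 were higher and 7 lower with a median of −0.11. Kcnj13 (ENSRNOG00000016057; chromosome 9, 94487224 to 94495333), an inward rectifier best known from epithelia such as the choroid plexus, had 6 and 2 counts after vehicle and 33 and 15 counts after cisplatin. The groups did not overlap, and the log2 fold change was 2.42 ± 0.74 (SE; edgeR, unadjusted p = 0.0193 and adjusted p = 0.509). From the summed counts, 8 after vehicle and 48 after cisplatin, the ratio was 5.48 with a 95% exact interval of 2.57 to 13.4 that covers counting error only. Kcnj13 overlaps Gigyf2, a gene on the opposite strand that had 4013 counts in all and a log2 fold change of −0.24. Since the strand setting of the counting is not stated, the part of Gigyf2 reads in the count of Kcnj13 was not tested. Kcnj9 (ENSRNOG00000007645; chromosome 13, 90703036 to 90710287), a subunit of the G protein-gated channels that opioid receptors open, had 12.7 and 14.4 CPM after vehicle and 6.89 and 10.2 CPM after cisplatin. Its groups did not overlap, with a log2 fold change of −0.66 ± 0.29 (SE; edgeR, adjusted p = 0.522) that was −0.73 without vehicle replicate 1.

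The strong inward rectifiers, which hold the resting potential, were led by Kcnj12, with 27.9 and 18.2 CPM after vehicle and 20.3 and 12.5 CPM after cisplatin and a log2 fold change of −0.49 ± 0.34 (SE). Kcnj2 had only 15 and 23 counts after vehicle and 5 and 11 counts after cisplatin, without overlap, with a log2 fold change of −1.39 ± 0.70. The pores of the ATP-sensitive channels, which link metabolism to excitability, were Kcnj11, with 21.01 and 22.1 CPM after vehicle and 14.7 and 19.0 CPM after cisplatin, and Kcnj8, with 8.87 and 12.0 CPM against 7.79 and 12.5 CPM. Kcnj11 did not overlap and had a log2 fold change of −0.35 ± 0.23, whereas Kcnj8 overlapped, at −0.04 ± 0.33.

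The 12 tested K2P genes, which encode the background channels that set the resting potential, had 5 genes higher and 7 lower with a median of −0.07. Kcnk9 (ENSRNOG00000009265; chromosome 7, 113903557 to 113937941), an acid-sensitive background channel, had 29 and 11 counts after vehicle and 2 and 2 counts after cisplatin. This was the smallest p of all potassium channel genes, with a log2 fold change of −3.33 ± 0.79 (SE; edgeR, unadjusted p = 0.00611 and adjusted p = 0.509). The ratio of the summed counts, 40 after vehicle and 4 after cisplatin, was 10.9 with a 95% exact interval of 3.96 to 42.1 for counting error. Without vehicle replicate 1 the log2 fold change was −2.68, with an unadjusted p of 0.057 in edgeR; the part of the spinal cord and muscle markers of that library was not tested. At 0.274 FPKM the gene is barely expressed, and it overlaps Trappc9 on the same strand. Trappc9 had 4838 counts in all and a log2 fold change of 0.13. Kcnk15 (ENSRNOG00000010816; chromosome 3, 160231914 to 160238132), of the same acid-sensitive family, went the other way, with 71 and 26 counts after vehicle and 164 and 70 counts after cisplatin. Cisplatin replicate 2 and vehicle replicate 1 were nearly equal once scaled (2.98 and 2.84 CPM), so that the groups were only just apart, and the log2 fold change was 1.17 ± 0.55 (SE; edgeR, adjusted p = 0.543) and 1.84 without vehicle replicate 1. Kcnk3, also acid-sensitive, had 19.9 and 12.8 CPM against 22.6 and 10.5 CPM, overlapping groups with a fold change of 1.01. Of the class, Kcnk13 also did not overlap, with 45 and 37 counts after vehicle and 23 and 29 counts after cisplatin and a log2 fold change of −0.78 ± 0.40. Kcnk7, at only 0.357 FPKM, lay above without overlap, with a log2 fold change of 0.42. Thus 2 of the 12 tested genes of the class lay above and 2 below without overlap, against 20.6% and 21.2% of all genes tested.

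Kcnk1, the most abundant K2P gene, followed the Schwann cell markers in its order, with 101 and 161 CPM after vehicle and 91.3 and 148 CPM after cisplatin. Replicate 2 was higher than replicate 1 in both groups, and the log2 fold change was −0.13 ± 0.34 (SE). The mechanically and lipid-gated genes gave no common direction: Kcnk2 had 17.9 and 22.7 CPM against 16.2 and 18.2 CPM, Kcnk4 had 19.5 and 19.6 CPM against 35.2 and 17.5 CPM, and Kcnk10 had 3.36 and 2.18 CPM against 5.35 and 3.23 CPM. Only cisplatin replicate 1 stood above the vehicle-treated libraries for Kcnk4 and Kcnk10. Kcnk18, a calcineurin-regulated channel known from trigeminal and spinal sensory neurons, had 97 and 45 counts after vehicle and 94 and 40 counts after cisplatin, with a log2 fold change of −0.19 ± 0.50.

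Of the 15 genes that were not tested, Kcne1 had 0 counts in all 4 libraries, which allows a level of up to 0.118 to 0.152 CPM. Kcnj16 and 1 of the 2 Kcnk6 genes were high in vehicle replicate 1 only, with 31 against 7, 2 and 5 counts and 22 against 1, 0 and 1 counts. The others, Kcng4, Kcnh3, Kcnh4, Kcnj1, Kcnj15, Kcnk16, the other Kcnk6 gene, Kcnmb1, Kcnmb3, Kcns2, Kcnu1 and Kcnv2, had between 0 and 24 counts per library. Kcnd2 was not analysed here.

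RefSeq promoter windows (build GRCr8, 250 bases before and 50 after each start) were matched by symbol for 55 of the 85 symbols, with 61 windows. The genes with the smallest p that had an entry are shown, as the 150 bases just before the annotated start, 5′ to 3′ on the minus strand that all of them lie on, with capitals for a GC box (GGGCGG on either strand) or a TATA box (TATAAA). Kcnj13 and Kcnip1 were higher after cisplatin and Kcnh7 and Kcnj9 lower, and none of them was called. So few genes cannot tie a kind of promoter to a direction. The stretches are chr9:95518987-95519136 for Kcnj13, chr10:19093026-19093175 and chr10:18940810-18940959 for the 2 starts of Kcnip1, chr3:68230672-68230821 for Kcnh7 and chr13:87320294-87320443 for Kcnj9.
Kcnj13: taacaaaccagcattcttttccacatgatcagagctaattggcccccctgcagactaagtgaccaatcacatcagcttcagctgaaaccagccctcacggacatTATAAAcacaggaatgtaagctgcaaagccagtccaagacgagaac
Kcnip1, start 1: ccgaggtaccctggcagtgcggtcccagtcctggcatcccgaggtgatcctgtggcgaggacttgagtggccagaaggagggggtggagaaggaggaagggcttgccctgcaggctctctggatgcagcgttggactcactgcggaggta
Kcnip1, start 2: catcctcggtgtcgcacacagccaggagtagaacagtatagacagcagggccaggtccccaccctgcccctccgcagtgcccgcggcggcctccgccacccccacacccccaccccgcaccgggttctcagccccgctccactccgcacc
Kcnh7: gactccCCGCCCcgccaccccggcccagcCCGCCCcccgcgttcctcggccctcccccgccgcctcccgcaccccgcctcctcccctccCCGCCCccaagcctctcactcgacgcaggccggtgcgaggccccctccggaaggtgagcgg
Kcnj9: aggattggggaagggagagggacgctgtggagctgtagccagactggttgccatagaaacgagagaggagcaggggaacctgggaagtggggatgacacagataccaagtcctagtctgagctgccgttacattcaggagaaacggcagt
In these stretches Kcnj13 has a TATA box, Kcnh7 has 3 GC boxes, and Kcnip1 and Kcnj9 have neither, although a GC box stands elsewhere in the 300-base windows of Kcnip1. Over all matched windows, searched on both strands, 50.8% of the potassium channel promoters held a GC box against 33.1% of all 33469 promoters, 3.28% held a TATA box against 14.2%, and 0 of 61 held the cyclic AMP response element TGACGTCA against 1.83%. The left and right parts of the RE1 element bound by the repressor REST, TTCAGCACC and GGACAGCG, were each found in 1 window, of Kcnh6 and Kcnh5 (1.64% each, against 0.356% and 1.21% of all promoters). The median GC content was 60.7% in the potassium channel windows and 51.7% in all. A match of letters is no measure of binding, and these shares are descriptions.

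Genes that act with potassium channels were read from 2 further lists. The partner list holds transmembrane, scaffold and calmodulin genes that bind the channels, and 15 of its 18 genes were tested, with 9 higher and 6 lower and a median of 0.03. Dpp6, which with the Kcnip products completes the neuronal A-type channel, had 236 and 166 CPM after vehicle and 312 and 207 CPM after cisplatin, with a log2 fold change of 0.37 ± 0.30 (SE). Amigo1, a partner of delayed rectifier channels, had 130 and 90.6 CPM against 136 and 87.6 CPM. Calm2, a calmodulin gene whose product is a built-in sensor of the M-current and small-conductance channels, had 169 and 162 CPM after vehicle and 262 and 242 CPM after cisplatin. The groups did not overlap, with a log2 fold change of 0.61 ± 0.19 (SE; edgeR, unadjusted p = 0.0198 and adjusted p = 0.509), although near-identical calmodulin genes can exchange reads and Calm3 was at 0.03. Abcc9, the partner of the ATP-sensitive pores in vessel wall cells, lay below without overlap, with a log2 fold change of −0.49 ± 0.26.

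The regulator list holds 7 genes whose products are known to bind or modify potassium channel promoters, several of them as repressors, and 2 were higher and 5 lower with a median of −0.37. Dnmt3a, a DNA methyltransferase linked to silencing of potassium channel genes after nerve injury, had 17.1 and 12.9 CPM after vehicle and 5.39 and 6.84 CPM after cisplatin. Its groups did not overlap, with a log2 fold change of −1.30 ± 0.28 (SE; edgeR, unadjusted p = 0.00433 and adjusted p = 0.509). Rest, which encodes the RE1 repressor, had 9.23 and 12.7 CPM after vehicle and 3.86 and 6.46 CPM after cisplatin, again without overlap, with a log2 fold change of −1.09 ± 0.36 (SE; edgeR, unadjusted p = 0.0249 and adjusted p = 0.509). Mbd1, a methyl-DNA binding repressor, had 28.4 and 26.5 CPM against 20.2 and 19.2 CPM, a log2 fold change of −0.48 ± 0.19. None of the partner and regulator genes passed the adjusted threshold in edgeR or DESeq2. At an unadjusted p under 0.05 in edgeR with at least a 1.5-fold difference, 1 of 15 partner genes and 2 of 7 regulator genes tested remained. Of all genes tested, 2.8% were higher and 5.32% lower at that limit. Markers of pericytes, fibroblasts, endothelium and satellite glia had medians of −0.34, −0.26, −0.23 and −0.15, those of macrophages and leukocytes 0.10, of Schwann cells −0.36 and of neurons 0.24; their part in the lower regulator values was not tested.

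The potassium channel genes shared an order over the libraries that the choice by name did not use. Their highest level was in cisplatin replicate 1 for 33 of 71 genes, in vehicle replicate 1 for 19, in vehicle replicate 2 for 12 and in cisplatin replicate 2 for 7. In 50 of the 71 (70.4%) replicate 1 was above replicate 2 in both groups, against 34.2% of all genes tested, and in 14 the opposite held. Summed over all 86 genes, the level was 1573 and 1195 CPM after vehicle and 1887 and 1243 CPM after cisplatin. Set against the neuron markers in the same library, the sum was 4.61 and 4.57 CPM per 100 CPM of neuron markers after vehicle and 4.49 and 4.14 after cisplatin, a far narrower range than that of the sum itself. Both ratios after cisplatin lay below both ratios after vehicle, but 4.49 was nearer to the vehicle ratios than to 4.14. Among single genes, 21.2% of all tested also had both cisplatin-treated libraries below both vehicle-treated libraries. A group difference in this ratio was not tested. The 4 libraries had the same order in summed potassium channel RNA and in summed neuron marker RNA. The part of neuronal content in the values of single genes was not tested.

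Leaving out vehicle replicate 1 moved the median log2 fold change of the 71 genes from 0.06 to 0.34, with 47 higher and 24 lower, while the median over all 14719 genes was 0.01. The direction stayed in 62 genes and turned in 9. The 3 genes with the largest shift were lower in the fit of all libraries and highest in that library: Kcna7 went from −0.66 to 0.68, Kcnq3 from −2.01 to −0.78 and Kcnh5 from −1.26 to −0.18. Kcnj12 went from −0.49 to −0.14 and Kcnj13 from 2.42 to 3.20. Several abundant genes moved up, Kcnc4 from 0.21 to 0.98, Kcnd1 from 0.38 to 0.75, Kcnd3 from 0.32 to 0.61, Kcnh2 from 0.36 to 0.69, Kcnt1 from 0.39 to 0.68, Kcnt2 from 0.34 to 0.70 and Kcnip3 from 0.14 to 0.44, and Kcnc1 turned from −0.07 to 0.76, whereas Kcnk1 moved down from −0.13 to −0.42. The neuron markers moved in the same way, from a median of 0.24 to 0.54, and the Schwann cell markers from −0.36 to −0.84. Whichever library was left out, Kcnip4 stayed between 0.48 and 1.29 and Kcnj13 between 1.82 and 3.20, each lowest without cisplatin replicate 1. They were at 1.11 and 3.20 without vehicle replicate 1. Without it the unadjusted p from edgeR was 0.058 for Kcnip1, 0.057 for Kcnk9 and 0.303 for Kcnq3.

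**Figure D5:**
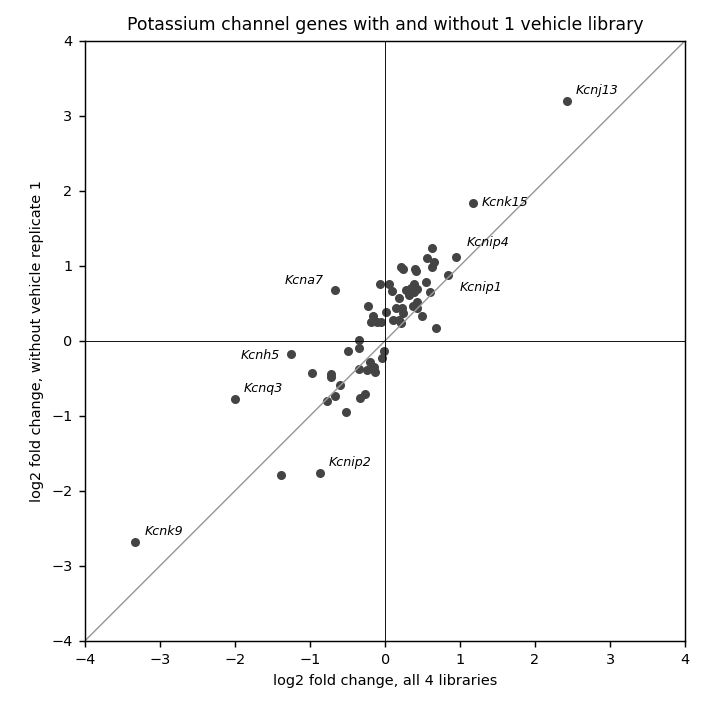
log2 fold change of 68 of the 71 tested genes in the fit of all 4 libraries (x axis) and without vehicle replicate 1 (y axis), with a line where both are equal. Most points lie above the line, among them Kcnq3 (−2.01 and −0.78), while Kcnip1 (0.84 and 0.87) lies near it.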

How the data were processed

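Lumbar DRG RNA of 2 vehicle-treated and 2 cisplatin-treated rat libraries was sequenced as paired reads. Per the submitters' processing notes, the authors used HISAT2 2.0.5, StringTie 1.3.3b, featureCounts 1.5.0-p3, DESeq2 1.20.0 and edgeR 3.22.5 on the Ensembl Rnor_6.0 build, and they deposited whole-number raw counts per gene without normalisation. The strand setting of the counting is not given in the sources used here. The authors also deposited FPKM values, divided by gene length and by a library constant that lay between 0.938 and 1.10 times the total count.

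Counts of protein-coding genes, taken from the deposited biotype, were filtered with filterByExpr (14719 of 22293 kept), TMM-normalised (factors 0.938 to 1.10) and compared with edgeR 4.0.16 in R 4.3.3 (glmQLFit and glmQLFTest, group only, two-sided) with Benjamini-Hochberg adjustment over all genes tested. Standard errors (SE) were the absolute log2 fold change over the square root of F. DESeq2 1.42.0 and limma 3.58.1 on log2(FPKM + 1) and log2(FPKM + 0.1), which understates changes of low genes, were alternatives, as were other scalings and filters, a gene length correction (lowess, span 0.3), the replicate number as a block and leaving out each library. Intervals and floors on counts cover counting error only, since the reads carry no molecular identifiers. The libraries were distinct, with a chi-square of at least 47.8 per degree of freedom in every pair.

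The genes, classes, marker lists and tests were chosen with earlier results of these data known. Genes were named if they were in a fixed list, were among the 12 of smallest p whose groups did not overlap, led their class by FPKM, or were partner or regulator genes with an unadjusted p under 0.05. Kcnh2, Kcnh5, Kcnh6, Kcna5, Kcna7, Kcna10, Kcnq1, Kcne3, Kcne5, Kcnn4, Kcnip2, Kcnk7, Dpp6, Amigo1, Calm3, Abcc9 and the genes that were not tested were named after their values were seen. Of the 86 genes, 13 overlap another gene, and for 4 (Kcnh3, Kcnj13, Kcnk9 and Kcnmb1) the overlapping gene had at least 5% as many counts as the gene itself. Some single genes are counted in the totals but not reported here.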

Additional observations from a re-analysis of the deposited data

How the results depend on the processing

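The count of genes called by edgeR among all genes tested was 1 and became 2 without the filter on low counts and also where every library had to hold 10 counts, 99 (36 higher, 63 lower) with DESeq2, 4 with limma on log2(FPKM + 1), 2 with limma on log2(FPKM + 0.1), and between 5 and 7 when each library was left out. The count of potassium channel genes called stayed at 0 in all of these. Their count at an unadjusted p under 0.05 and a difference of at least 1.5-fold was 5 and became 3 where every library had to hold 10 counts and 3 with limma on log2(FPKM + 1), and it lay between 4 and 14 when each library was left out, with 14 (11 higher, 3 lower) without cisplatin replicate 2. The share of all genes at this limit was worked out without these changes only, so a general shift under them was not tested. Without cisplatin replicate 2, the cisplatin group was replicate 1 alone, where 20 of the 22 neuron markers were highest. The median log2 fold change of the potassium channel genes, 0.06, lay between −0.17 (without cisplatin replicate 1) and 0.34 (without vehicle replicate 1), and at −0.01 with library size alone. These moves lay within the spread between libraries of 0.34, so the sign of the median is not settled. Spearman's rho between fold change and gene length was −0.357 over all genes and 0.0823 over the potassium channel genes, and the length correction gave medians of 0.07 and 0.18.

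Rats are numbered 1 and 2 within each group by the labels, but they are different rats that share only a number. The difference between replicates 2 and 1 correlated between the groups over all genes tested (Pearson's r = 0.412, Spearman's rho = 0.562). With the replicate block, edgeR called 1665 of the 14719 genes tested (529 higher, 1136 lower) against 1 without it, so that calls rose over all genes. Of the 71 potassium channel genes tested, 10 were called, 5 higher and 5 lower. Among them Kcnip1, Kcnip4, Kcnj13, Kcnk15 and Kcnv1 were higher and Kcng1, Kcnj9, Kcnk9 and Kcnq3 lower. At an unadjusted p under 0.05 and the same 1.5-fold limit there were 11 potassium channel genes. Of the partner and regulator genes, 3 (Calm2, Dnmt3a, Rest) were called with the block, against 0 without it. With the replicate block and the length correction edgeR called 1150 of the 14719 genes and 13 of the 71 potassium channel genes (9 higher, 4 lower). In that fit 20 potassium channel genes had an unadjusted p under 0.05 at the same limit, and 2 partner and regulator genes (Dnmt3a, Rest) were called. The share of all genes at the unadjusted limit was not worked out in either fit with the block. Calls rose over all genes there, so the counts of 11 and 20 cannot be read as particular to the potassium channel genes.

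Of the 40 named genes tested, 24 kept their direction under every alternative. The log2 fold change turned with the length correction in Kcnc1 (0.12), Kcnj8 (0.036) and Kcnma1 (0.20), and in the same genes with the length correction added to the block (0.15, 0.018 and 0.17). It turned with library size alone in Kcnk3 (−0.042), also with the block (−0.036), with log2(FPKM + 1) (−0.023) and with log2(FPKM + 0.1) (−0.043). Leaving out each library in turn gave ranges that cross 0 in Kcnb2 (−0.80 to 0.46), Kcnc1 (−0.75 to 0.76), Kcnc4 (−0.48 to 0.98), Kcnd1 (−0.13 to 0.76), Kcnip3 (−0.22 to 0.44), Kcnj8 (−0.42 to 0.27), Kcnk1 (−0.52 to 0.25), Kcnk18 (−0.86 to 0.26), Kcnk3 (−0.64 to 0.46), Kcnk4 (−0.15 to 0.85), Kcnma1 (−0.54 to 0.32), Kcnmb4 (−0.36 to 0.13), Kcnn2 (−0.045 to 0.72), Kcnq5 (−0.24 to 0.96), Kcns1 (−0.43 to 0.65) and Kcnt1 (−0.10 to 0.76).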

Other observations

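Kcnip2, a Kv4 auxiliary subunit gene chosen after its values were seen, had no order by group or by replicate number, with 12 and 106 counts after vehicle and 58 and 20 counts after cisplatin. Its log2 fold change of −0.87 ranged from −1.76 to 1.70 when each library was left out. Kcnh5 had 36 and 9 counts after vehicle, 20 counts in cisplatin replicate 1 and 0 counts in cisplatin replicate 2, where a count of 0 allows up to 0.128 CPM.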
